A study of Mus musculus with 19 samples.

Results

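The genes described here are the nitric oxide synthases Nos1, Nos2 and Nos3 and the genes that supply their substrate or cofactor: Ass1, Asl, Gch1, Slc7a1 and Slc7a2. They were chosen by name, 8 of the 36682 genes in the deposited table of counts and FPKM (fragments scaled to transcript length and library size). The set was built around Nos2, which was picked for its values in the comparisons of AP20187 with vehicle, so those values are given as a description without a test.

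The RNA came from dorsal root ganglia (DRG), which house the cell bodies of sensory neurons next to the spinal cord, of 19 male mice. All 4 groups were homozygous for MaFIA, a transgene that places a drug-inducible Fas death receptor under the Csf1r promoter, which is active in macrophages and other myeloid cells, so the vehicle mice carried it too. The mice had either undergone DMM, a knee surgery that destabilizes the medial meniscus and models osteoarthritis, or were naive mice of the same age. They received the dimerizing drug AP20187 or its vehicle intraperitoneally each day for 5 days, in the DMM mice 8 weeks after surgery. The groups were DMM with AP20187 (n = 5, mice 58 to 62), DMM with vehicle (n = 5, mice 32, 33, 34, 63 and 64), naive with AP20187 (n = 4, mice 1, 3, 4 and 5) and naive with vehicle (n = 5, mice 1 to 5). The L3 to L5 ganglia were pooled, in DMM mice from the operated side, and the side used in naive mice is not given. The sample numbers 1, 3, 4 and 5 occur in both naive groups. Each library is taken here as 1 mouse, so p-values measure the spread between these samples. The mouse numbers of the DMM vehicle group fall in separate series, and no batch is given.

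Nitric oxide synthases convert arginine to citrulline and release nitric oxide. Nos1 and Nos3 are constitutive, calcium-dependent enzymes best known from neurons and from endothelium, whereas Nos2 is the inducible enzyme of activated myeloid cells. Ass1 and Asl rebuild arginine from citrulline, Gch1 starts the synthesis of the cofactor tetrahydrobiopterin, and Slc7a1 and Slc7a2 carry cationic amino acids into the cell.

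Libraries held 60984830 to 74691396 counts. All 10 sensory neuron markers were detected in every group, and their summed level, in counts scaled to library size after TMM normalization (CPM), ranged from 3737 to 7875 in the vehicle libraries and from 1400 to 4982 in the AP20187 libraries. Markers of granulocyte precursors (9 genes) summed to 13362 to 23038 CPM in DMM with AP20187 and 6615 to 19650 CPM in naive with AP20187, against 297 to 5583 CPM and 623 to 1742 CPM with vehicle. Skeletal muscle markers (6 genes) summed to 1501 to 2311 CPM in naive with AP20187 and 1766 CPM in DMM vehicle mouse 32, against at most 408 CPM in the other libraries. Of 10 macrophage markers, 1 was higher with AP20187 in DMM, 3 were higher in naive mice and none was lower. This is by edgeR's quasi-likelihood test (adjusted p under 0.05, named "called" below). Over all genes 11.3% were called higher in DMM and 8.61% in naive mice. The DMM vehicle group was uneven: mouse 64 had the most granulocyte precursor and the least neuronal marker RNA of its group. In bulk tissue, fewer cells of a type and less RNA per cell cannot be told apart.

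Nos2 was close to absent without AP20187 and present in every library with it. With vehicle, 4 of 5 DMM libraries and 4 of 5 naive libraries held 0 counts of Nos2 (ENSMUSG00000020826, chr11:78811613-78851080, GRCm39), where a count of 0 allows up to 3 counts if 1 fragment is worth 1 count. The remaining vehicle libraries held 20 counts (DMM mouse 32, 0.308 CPM) and 12 counts (naive mouse 4, 0.194 CPM). In DMM with AP20187 the counts were 2743, 1425, 2242, 1814 and 3511 for mice 58 to 62. These are 41.6, 20.8, 34.2, 27.2 and 59.6 CPM, a mean of 36.7 ± 14.99 CPM (SD, n = 5).

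In naive mice with AP20187, Nos2 stood at 24.1, 23.6, 15.1 and 12.1 CPM in mice 1, 3, 4 and 5, a mean of 18.7 ± 6.04 CPM (SD, n = 4), from 749 to 1400 counts. All 9 AP20187 libraries were therefore far above all 10 vehicle libraries. The lowest AP20187 library was 67.6 times the highest vehicle library in DMM and 62.7 times in naive mice.

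The fitted log2 fold changes were 9.19 in DMM and 8.94 in naive mice, and both rest on the few vehicle counts: they became 14.19 without DMM vehicle mouse 32 and 13.26 without naive vehicle mouse 4. Those few counts are themselves coarse. Over all libraries the value 4 was listed 16651 times, against 7867 times for 3 and 5530 times for 5. The value 12 was listed 6099 times, against 3412 for 11 and 2942 for 13. The counts of 12 and 20 may thus stand for fewer fragments than they read, in which case a count of 0 allows more than 3 listed counts. The reason for the pile-up was not tested.

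The DMM libraries with AP20187 had a higher mean of Nos2 than the naive libraries with AP20187, but the ranges overlapped (20.8 to 59.6 against 12.1 to 24.1 CPM). The log2 difference was 0.97 (95% interval -0.60 to 2.54, adjusted p = 0.523), which did not pass the test. On the deposited FPKM values limma put it past the threshold, with 0.93 on the log2(FPKM + 1) scale (adjusted p = 0.0101) and 1.09 with a pseudocount of 0.1 (adjusted p = 0.0345).

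The mean makeup of NO synthase RNA differed between AP20187 and vehicle. On the FPKM scale, which corrects for transcript length, Nos2 averaged 7.93 ± 2.81 in DMM and 3.59 ± 0.977 in naive mice with AP20187. Nos2 then made up 70.9% ± 11.1 (SD, n = 5) of the summed FPKM of the 3 NO synthases in DMM and 47.7% ± 12.4 (SD, n = 4) in naive mice, against 0.342% and 0.0955% with vehicle. With vehicle, Nos1 had the largest mean share, at 60.0% ± 25.5 in DMM and 68.1% ± 15.7 in naive mice, and Nos3 held 39.6% and 31.8%. Single libraries departed from this order: the share of Nos1 went down to 19.3% and that of Nos3 up to 80.7% in DMM vehicle mouse 64, and Nos3 held 53.2% in naive vehicle mouse 4. The share of Nos1 was 8.72% ± 4.21 in DMM with AP20187 and 24.7% ± 12.6 in naive mice with AP20187. In naive AP20187 mouse 5 the share of Nos1 (35.1%) was slightly above that of Nos2 (34.9%). The summed FPKM of the family was 7.50 to 14.7 in DMM with AP20187 and 7.29 to 7.65 in naive mice with AP20187. It was 2.95 to 5.398 and 3.33 to 8.71 with vehicle, so only the DMM groups were apart.

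**Figure D1:**
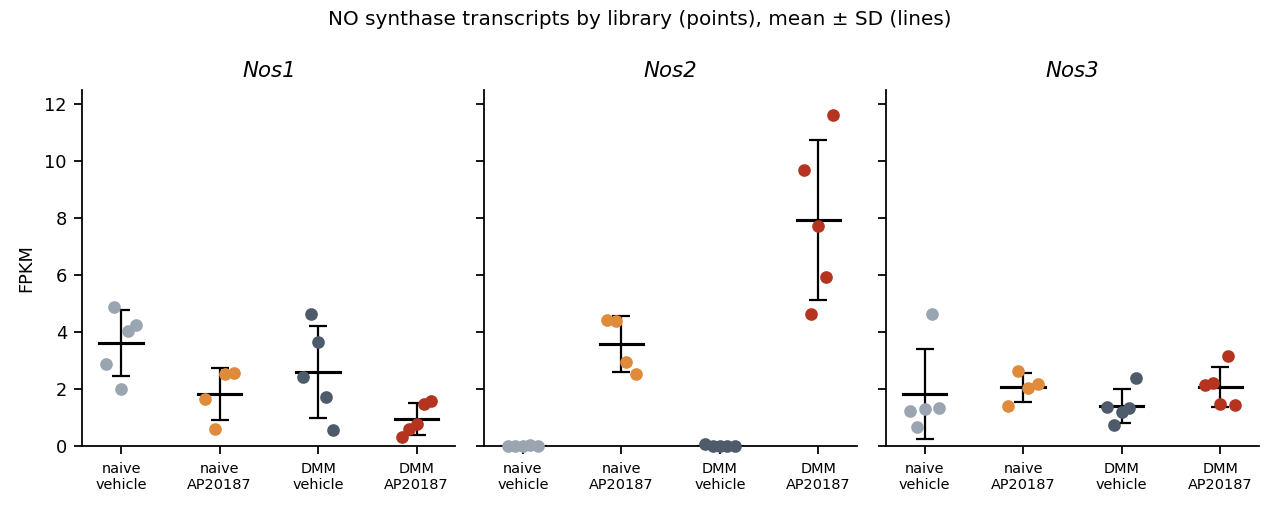
FPKM of Nos1, Nos2 and Nos3 in each of the 19 libraries (points) by group, with the group mean and SD (lines). Nos2 lies at or near 0 in all 10 vehicle libraries and between 2.54 and 11.6 in the 9 AP20187 libraries, whereas the ranges of Nos3 overlap between all groups.

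Nos2 levels were set beside markers of the cells that could carry them. Per 1000 CPM of summed granulocyte precursor markers, Nos2 was 2.02 ± 0.445 CPM in DMM (SD, n = 5) and 1.51 ± 0.317 CPM in naive mice (SD, n = 4) with AP20187. DMM vehicle mouse 64 had 5583 CPM of these markers and 0 counts of Nos2. Naive AP20187 mouse 5 had 6615 CPM of the markers, the lowest of the AP20187 libraries, and 749 counts of Nos2. The next vehicle library below mouse 64 had 1976 CPM of the markers. Per 1000 CPM of monocyte markers, Nos2 was 7.16 ± 1.67 CPM in DMM and 6.52 ± 1.19 CPM in naive mice with AP20187. Of the 5 monocyte markers, 3 were called higher and 1 lower in DMM, and 2 higher and 1 lower in naive mice. The shares of all genes called higher and lower were 11.3% and 12.4% in DMM and 8.61% and 2.57% in naive mice. Against mature neutrophil markers, on the same scale, Nos2 was 5.85 ± 1.32 and 3.81 ± 1.84 CPM. Against macrophage markers it ran from 24.9 to 255 CPM in DMM and from 26.3 to 56.8 CPM in naive mice. The part that any cell type plays in the Nos2 level was not tested.

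**Figure D2:**
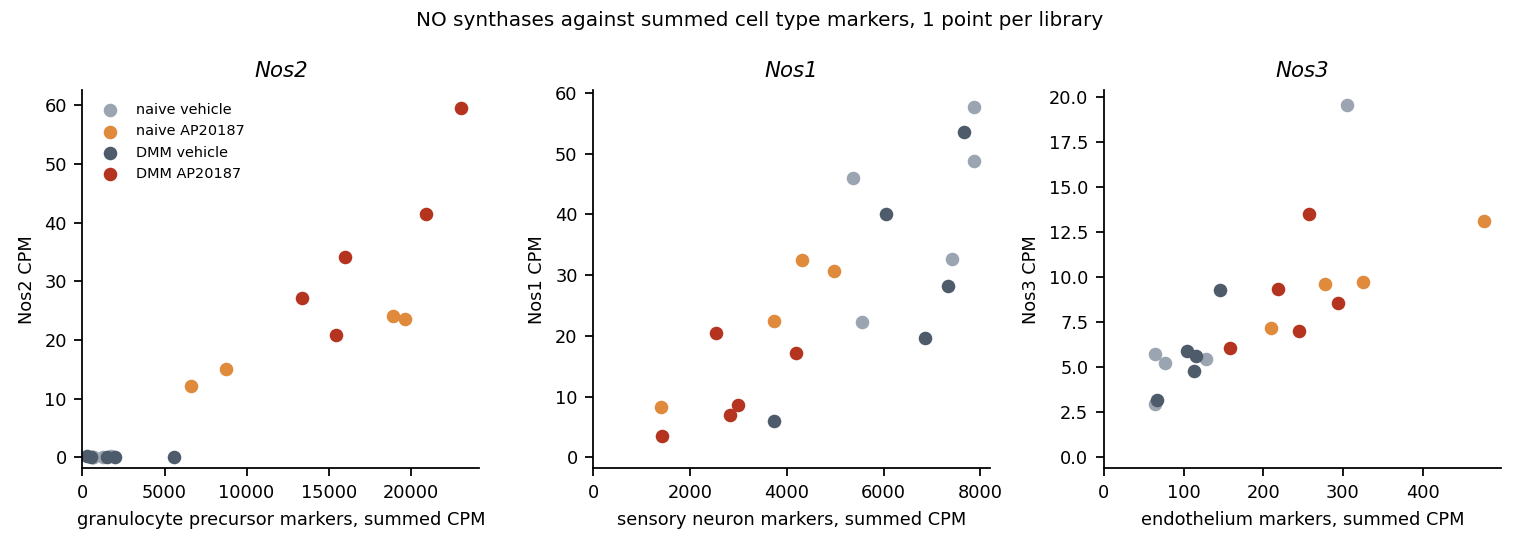
CPM of Nos2, Nos1 and Nos3 (vertical axes) against the summed CPM of granulocyte precursor, sensory neuron and endothelium markers (horizontal axes), with 1 point per library coloured by group. The DMM vehicle library at 5583 CPM of granulocyte precursor markers has no Nos2, and the naive vehicle library with 19.6 CPM of Nos3 also has 306 CPM of endothelium markers.

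The genes whose log2 CPM followed Nos2 most closely over the 19 libraries were, among 14957 compared, Lipg, an endothelial-type lipase, with a Pearson r of 0.98, Slc28a3, a nucleoside transporter (0.97), Ggt1, a gamma-glutamyltransferase (0.97), and Ifitm1 (0.96). The next were Csf2rb2, a receptor subunit for interleukin-3 (0.95), Upp1, Cxcl13, G6pdx, Scgb3a1 and Rd3 (each 0.95). Lipg averaged 340 CPM in DMM and 183 CPM in naive mice with AP20187, against 2.38 and 3.15 CPM with vehicle. G6pdx, which makes the NADPH that NO synthases and the oxidative burst consume, averaged 754 and 530 CPM with AP20187 and 89.4 and 79.2 CPM with vehicle. All libraries share the AP20187 contrast, so these values describe that contrast as much as any closer tie. Over the 9 AP20187 libraries alone, after the group means were subtracted, the closest were Mocos (0.99), Nxn (0.99), Slc2a3, a glucose transporter (0.99), Ptpre and Rnf40 (both 0.98). They are the highest of 14957 values over 9 libraries, and no test was made. None of the 10 closest genes was in both lists.

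Among the other 7 genes, all of which passed the filter on low counts, 1 fell and none rose with AP20187 in DMM (Ass1), where 11.3% of the 22778 genes tested were called higher, 12.4% lower and 23.8% in either direction. In naive mice edgeR called 0 of the 7, with 0 at an unadjusted p under 0.05, and DESeq2 and limma called 0 as well, where edgeR called 8.61% of all genes higher, 2.57% lower and 11.2% in either direction. A share of 1 in 7 in DMM is near the background. The median log2 fold change of the 7 was -0.11 in DMM and -0.20 in naive mice, beside -0.10 and -0.07 over all genes. With DMM vehicle mice 63 and 64 alone as controls 0 of the 7 were called. With mice 32 to 34 alone Ass1, Nos1 and Slc7a1 were called lower. The calls over all genes with these controls were 1156 and 8450, beside 5410 with all libraries. Of all genes called in naive mice, 77.0% were higher on the TMM scale but 40.3% on the log2(FPKM + 1) scale and 63.3% with DESeq2. The interaction, which asks whether the AP20187 effect differed between DMM and naive mice, called 0 of the 7 with edgeR (0 at an unadjusted p under 0.05), where 0.114% of all genes were called, 0.0483% positive and 0.0659% negative. For Ass1, DESeq2 and limma did not call the interaction either.

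**Figure D3:**
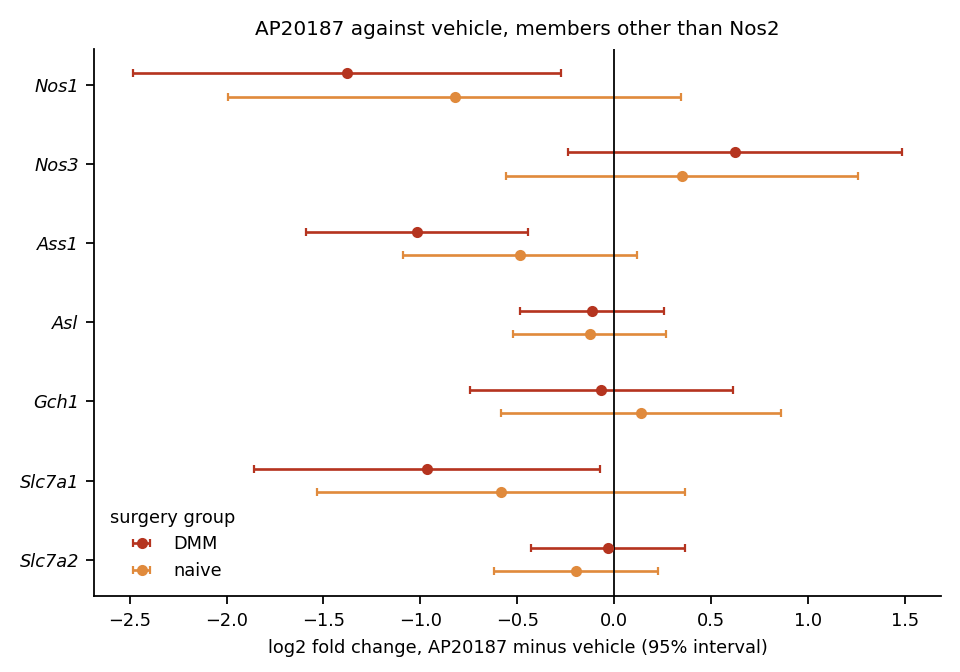
Log2 fold change of AP20187 against vehicle (horizontal axis) for the 7 genes other than Nos2 in DMM and in naive mice, with 95% intervals from the edgeR standard error. Ass1 in DMM mice (-1.02) passed the test; the intervals of Nos1 and Slc7a1 in DMM also lie below 0, but their adjusted p-values were 0.0604 and 0.1004.

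Nos1, Ass1 and Slc7a1 had lower means with AP20187 in both surgery groups, and so had Asl and Slc7a2. Of these genes Ass1 alone passed the test, and in DMM only. The upstream sequences of the first 3 are shown because they also had a sequence entry. RefSeq sequences (GRCm38.p6) were matched for 4 of the 8 genes: Ass1, Nos1, Slc7a1 and Gch1. Nos2, Nos3, Asl and Slc7a2 had no entry. The 250 bases before the annotated start are given 5′ to 3′ on the strand of the gene, with motif matches in capitals. Whether each annotated start belongs to the first exon of its gene was not checked.
Ass1 (chr2:31470020-31470269, plus strand): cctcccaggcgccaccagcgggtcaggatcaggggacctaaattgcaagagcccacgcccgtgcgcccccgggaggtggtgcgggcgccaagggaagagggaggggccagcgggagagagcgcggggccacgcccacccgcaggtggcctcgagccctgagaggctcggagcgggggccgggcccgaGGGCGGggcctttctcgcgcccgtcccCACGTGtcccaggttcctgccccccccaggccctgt
Nos1 (chr5:117866589-117866838, plus strand): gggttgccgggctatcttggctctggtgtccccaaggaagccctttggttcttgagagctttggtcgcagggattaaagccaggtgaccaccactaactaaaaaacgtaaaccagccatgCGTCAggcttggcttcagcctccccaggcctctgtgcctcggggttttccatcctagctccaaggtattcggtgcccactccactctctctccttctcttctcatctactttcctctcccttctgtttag
Slc7a1 (chr5:148399905-148400154, minus strand): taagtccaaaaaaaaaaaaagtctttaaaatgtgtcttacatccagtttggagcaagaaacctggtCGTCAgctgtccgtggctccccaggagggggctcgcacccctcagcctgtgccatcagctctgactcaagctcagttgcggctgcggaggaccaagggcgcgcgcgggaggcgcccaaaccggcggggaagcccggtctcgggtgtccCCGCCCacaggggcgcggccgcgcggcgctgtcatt
Motifs were searched on both strands of these windows and of all 32851 such windows in the table. The TATA box, TATAAA, was found in 12.4% of all windows and in none of the 3. The core of the cAMP response element, TGACG, was found in 17.8% of all windows. The E box, CACGTG, a palindrome, was found in 6.02% and the GC box, GGGCGG, in 32.7%. Counted from the start, with -1 the last base before it, Ass1 held a GC box at -63 and an E box at -36. Nos1 held the cAMP response element core at -130, and Slc7a1 held it at -184 with a GC box at -36. No motif was shared by all 3 windows. Their GC content was 75.6% (Ass1), 54.0% (Nos1) and 62.4% (Slc7a1), beside a median of 52.4% over all windows. The table holds a second Slc7a1 start, not printed, whose window held a TATA box at -28 and none of the other 3 motifs.

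Nos1, the neuronal NO synthase (ENSMUSG00000029361, chr5:117919097-118092429), stood at 3.50, 7.005, 8.61, 17.2 and 20.4 CPM in DMM mice 58 to 62 with AP20187. In DMM with vehicle it stood at 28.3, 53.5, 40.0, 19.6 and 6.01 CPM in mice 32, 33, 34, 63 and 64. The groups overlapped through mice 63 and 64, the vehicle libraries lowest in Nos1. The log2 fold change was -1.38 (SE 0.52, adjusted p = 0.0604), short of the threshold.

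This result turned on single libraries and on the tool. DESeq2 gave a log2 fold change of -1.38 with an adjusted p of 0.0264. Leaving out DMM vehicle mouse 64 gave -1.64 (adjusted p = 0.0122), leaving out AP20187 mouse 61 gave -1.58 (adjusted p = 0.0456) and leaving out mouse 62 gave -1.70 (adjusted p = 0.0436). Against DMM vehicle mice 63 and 64 alone the log2 fold change was -0.14 (adjusted p = 0.944), and against mice 32 to 34 it was -1.84 (adjusted p = 0.00800).

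In naive mice Nos1 was 22.5, 8.26, 32.5 and 30.7 CPM with AP20187 (mice 1, 3, 4 and 5) and 32.7, 57.7, 22.3, 46.0 and 48.7 CPM with vehicle (mice 1 to 5). The groups overlapped, and the log2 fold change was -0.82 (95% interval -1.99 to 0.35, adjusted p = 0.324). Of the sensory neuron markers, 5 of 10 were called lower with AP20187 in DMM and 0 of 10 in naive mice. Over all genes 12.4% and 2.57% were called lower. In naive mice all 10 markers had negative fold changes (median -0.91 on the log2 scale). Their summed level in naive mice was 1400 to 4982 CPM with AP20187 and 5360 to 7875 CPM with vehicle, without overlap. Per 1000 CPM of summed sensory neuron markers, Nos1 was 3.99 ± 2.37 CPM with AP20187 and 4.38 ± 2.35 CPM with vehicle in DMM, and 6.39 ± 0.756 and 6.11 ± 1.93 CPM in naive mice. The ranges of these ratios overlapped in both surgery groups, and the part of neuronal RNA in the Nos1 level was not tested.

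Nos3, the endothelial NO synthase (ENSMUSG00000028978, chr5:24569808-24589472), was 8.55, 9.34, 6.07, 13.5 and 6.998 CPM in DMM with AP20187 and 5.91, 3.19, 4.80, 5.64 and 9.30 CPM in DMM with vehicle. The highest vehicle library, mouse 64, lay inside the AP20187 range. The log2 fold change was 0.62 (95% interval -0.24 to 1.49, adjusted p = 0.283). The gene overlaps Atg9b and Gm15587 on the opposite strand, and whether the counting used strand is not given in the sources used here. Atg9b itself averaged 1.197 CPM in DMM with AP20187 and 1.65 CPM in DMM with vehicle.

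In naive mice Nos3 was 7.18, 13.1, 9.65 and 9.74 CPM with AP20187 and 5.22, 2.95, 5.45, 19.6 and 5.73 CPM with vehicle. Naive vehicle mouse 4, at 19.6 CPM, was above every other library of the study. With it the log2 fold change was 0.35 (adjusted p = 0.599); without it the value was 1.04 (adjusted p = 0.0419). The same library had 306 CPM of summed endothelium markers, against 63.9 to 128 CPM in the other naive vehicle libraries. All 6 endothelium markers had positive fold changes with AP20187 in both surgery groups. In DMM 3 of them were called and in naive mice 2, beside 11.3% and 8.61% of all genes called higher. Per 1000 CPM of these markers Nos3 was 38.3 ± 9.99 CPM with AP20187 and 51.9 ± 8.43 CPM with vehicle in DMM. The corresponding values in naive mice were 31.6 ± 3.45 and 62.1 ± 18.95 CPM, with ranges of 27.5 to 34.7 and 42.7 to 89.7 that did not overlap. The part of endothelial RNA in the Nos3 level was not tested.

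**Figure D4:**
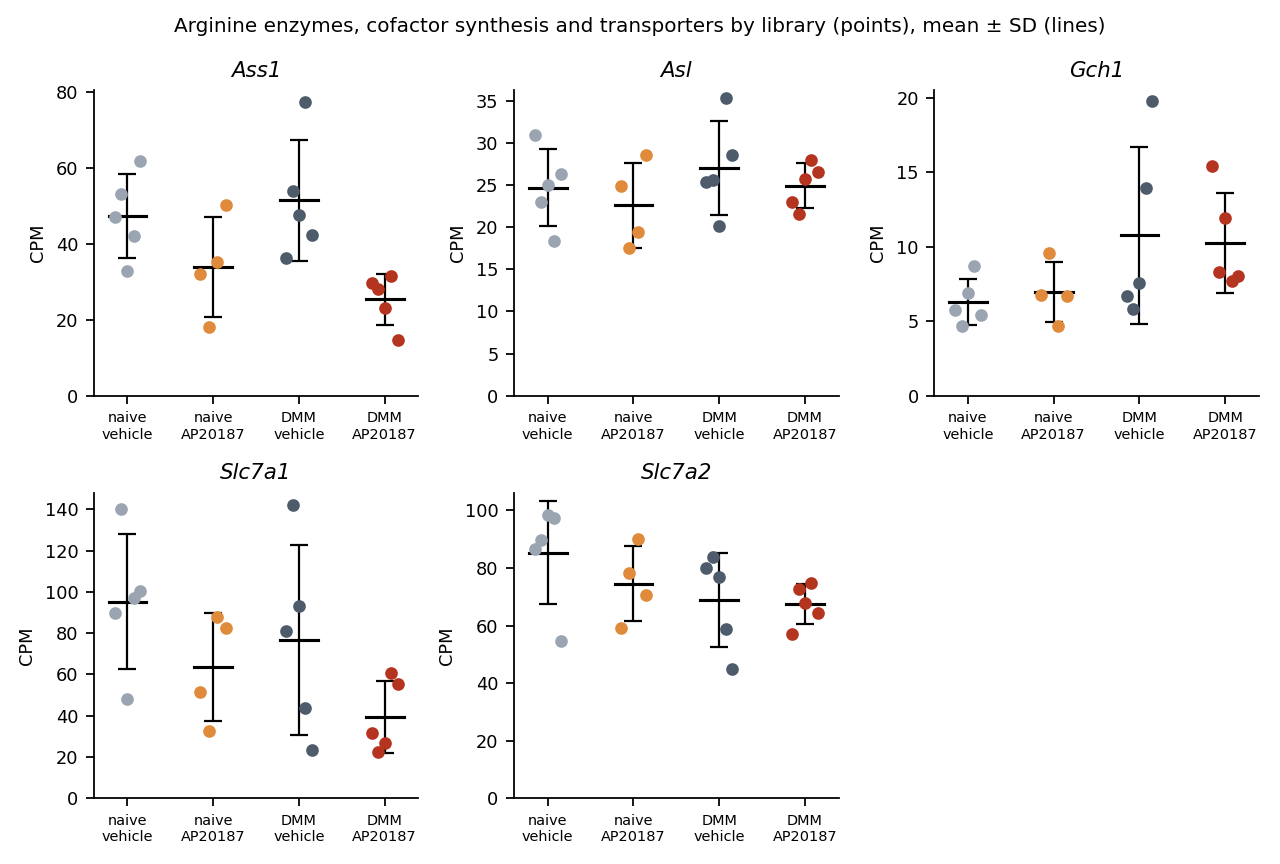
CPM of Ass1, Asl, Gch1, Slc7a1 and Slc7a2 in each of the 19 libraries (points) by group, with the group mean and SD (lines) and each vertical axis starting at 0. All 5 DMM libraries with AP20187 lie below all 5 DMM vehicle libraries for Ass1, and the ranges of Gch1, Slc7a1 and Slc7a2 overlap between those groups.

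Ass1, argininosuccinate synthase, the step that commits citrulline to arginine (ENSMUSG00000076441, chr2:31360219-31410684), fell with AP20187 in DMM. It was 29.6, 28.1, 23.1, 31.5 and 14.7 CPM in mice 58 to 62 with AP20187 and 36.3, 53.8, 47.5, 77.3 and 42.2 CPM in mice 32, 33, 34, 63 and 64 with vehicle. No AP20187 library reached the lowest vehicle library. The log2 fold change was -1.02 (SE 0.27, adjusted p = 0.0125), and leaving out any library kept it between -1.11 and -0.82 with an adjusted p of at most 0.0373. Against DMM vehicle mice 63 and 64 alone it was -1.18 (adjusted p = 0.0566), and against mice 32 to 34 alone it was -0.85 (adjusted p = 0.0279).

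In naive mice Ass1 was 32.0, 18.1, 35.1 and 50.2 CPM with AP20187 and 47.1, 53.2, 32.9, 42.0 and 61.9 CPM with vehicle. The ranges overlapped, and the log2 fold change was -0.49 (95% interval -1.09 to 0.12, adjusted p = 0.262). The AP20187 effects in the 2 surgery groups differed by -0.53 (adjusted p = 0.850). Ass1 was the member with the highest mean FPKM in each group. With vehicle it was at 21.2 ± 6.27 in DMM and 19.1 ± 4.21 in naive mice. With AP20187 it was at 10.4 ± 3.12 and 12.3 ± 5.45. It did not lead in every library: in DMM AP20187 mouse 62 Ass1 was at 5.25, against 11.6 for Nos2. Sensory neuron markers were also lower in DMM, with 5 of 10 called, beside 12.4% of all genes called lower. Per 1000 CPM of these markers Ass1 was 10.4 ± 6.01 CPM with AP20187 and 8.48 ± 2.77 CPM with vehicle in DMM, where AP20187 mouse 58 stood at 20.8 and the other 4 at 5.78 to 9.98. In naive mice the ratio was 9.92 ± 2.17 (8.13 to 12.9) with AP20187 and 6.94 ± 0.883 (5.91 to 7.87) with vehicle, and these ranges did not overlap. Markers of Schwann cells, the myelinating glia, were called lower in DMM for 3 of 5. Their part in the Ass1 level was not tested.

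Asl, argininosuccinate lyase, which releases arginine in the next step (ENSMUSG00000025533, chr5:130040099-130053860), varied little between group means. Group means ran from 22.6 ± 5.04 CPM in naive mice with AP20187 to 27.0 ± 5.56 CPM in DMM with vehicle, and the ranges of all 4 groups overlapped. The log2 fold changes with AP20187 were -0.11 (95% interval -0.48 to 0.26) in DMM and -0.13 (95% interval -0.52 to 0.27) in naive mice. In DMM Ass1 passed the test and Asl did not, and the difference between their fold changes was not tested.

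Gch1, GTP cyclohydrolase, the entry enzyme of tetrahydrobiopterin synthesis (ENSMUSG00000037580, chr14:47391352-47426870), did not pass the test with AP20187. It was 15.4, 8.29, 11.9, 7.70 and 8.02 CPM in DMM with AP20187 and 6.71, 5.79, 7.60, 13.9 and 19.8 CPM in DMM with vehicle (mice 32, 33, 34, 63 and 64). In naive mice it was 4.69 to 9.58 CPM with AP20187 and 4.71 to 8.68 CPM with vehicle. The log2 fold changes were -0.07 (95% interval -0.75 to 0.61) and 0.14 (95% interval -0.58 to 0.86). DMM vehicle mice 63 and 64 were above the other 3 of their group. The direction in DMM turned with these controls: the log2 fold change was -0.69 (adjusted p = 0.258) against mice 63 and 64 and 0.62 (adjusted p = 0.0982) against mice 32 to 34. Gch1 overlaps Gm18811 on its own strand and Gm49134 on the other.

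Of 6 other tetrahydrobiopterin genes, 3 fell and none rose with AP20187 in DMM, beside 12.4% of all genes called lower, and none passed in naive mice. Sensory neuron markers (5 of 10) and Schwann cell markers (3 of 5) were called lower in DMM too, and their part in these genes was not tested. Against DMM vehicle mice 32 to 34 alone 1 was lower and 1 higher. Against mice 63 and 64 alone, and without mouse 64, 3 were lower and none higher. The calls over all genes in these settings were 8450, 1156 and 7677, beside 5410 with all libraries. Pcbd1, a dehydratase that recycles the cofactor, fell by 0.96 on the log2 scale (SE 0.24, adjusted p = 0.0102), from 19.6 ± 6.78 to 10.1 ± 3.15 CPM. Spr, sepiapterin reductase, which makes the last step of synthesis, fell by 0.71 (SE 0.16, adjusted p = 0.00635). Qdpr, the reductase that regenerates the cofactor, fell by 0.58 (adjusted p = 0.0165).

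Slc7a1, the broadly expressed cationic amino acid transporter (ENSMUSG00000041313, chr5:148264220-148336714), was 31.4, 22.3, 27.0, 60.5 and 55.1 CPM in DMM with AP20187 and 80.9, 142, 93.1, 43.8 and 23.2 CPM in DMM with vehicle. As for Nos1, vehicle mice 63 and 64 lay inside the AP20187 range and mice 32 to 34 above it. The log2 fold change was -0.96 (SE 0.42, adjusted p = 0.1004). It was -1.20 without DMM vehicle mouse 64 (adjusted p = 0.0219), -1.42 against mice 32 to 34 (adjusted p = 0.00827) and 0.25 against mice 63 and 64 (adjusted p = 0.828). The direction therefore turned with the choice of controls.

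In naive mice Slc7a1 was 51.3, 32.4, 87.6 and 82.6 CPM with AP20187 and 89.9, 140, 48.3, 97.0 and 101 CPM with vehicle, with overlapping ranges (log2 fold change -0.58, 95% interval -1.53 to 0.36). Per 1000 CPM of sensory neuron markers it was 15.02 ± 6.73 CPM with AP20187 and 11.5 ± 5.46 CPM with vehicle in DMM, and 18.4 ± 4.14 and 13.9 ± 4.02 CPM in naive mice. The ranges of these ratios overlapped in both surgery groups, and the part of neuronal RNA in the Slc7a1 level was not tested.

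Slc7a2, the transporter whose splice forms serve liver and activated macrophages (ENSMUSG00000031596, chr8:41315433-41375345), averaged 67.4 ± 7.01 CPM in DMM with AP20187 and 68.9 ± 16.4 CPM in DMM with vehicle. In naive mice the means were 74.5 ± 13.03 and 85.4 ± 17.9 CPM. The log2 fold changes were -0.03 (95% interval -0.43 to 0.36) and -0.20 (95% interval -0.62 to 0.23). The naive vehicle library of mouse 5 lay apart at 54.6 CPM, below the other 4 at 86.6 to 98.5 CPM.

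None of the 7 genes passed the test between DMM and naive mice without the drug. Between DMM and naive vehicle mice edgeR called 0 of 22778 genes (0% of those tested), with 377 at an unadjusted p under 0.05. DESeq2 called 1 gene, limma on FPKM called 0, and neither called any of the 7. The difference whose 95% interval excluded 0 before adjustment was that of Gch1 (0.77, interval 0.09 to 1.46), with an adjusted p of 1. Gch1 in DMM vehicle mice 63 and 64 alone was 1.45 above naive vehicle (adjusted p = 0.0485) and in mice 32 to 34 alone 0.09 (adjusted p = 1). Among AP20187 mice, edgeR called 0 of the 7 genes between DMM and naive (0 at an unadjusted p under 0.05), where 0.263% of all genes were called higher, 0.439% lower and 0.702% in either direction. There 3795 of all genes had an unadjusted p under 0.05, and DESeq2 and limma called 0 of the 7.

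Around the 8 genes, 76 genes of neighbouring steps were set in 10 lists, and 72 of them were tested. In DMM 6 were higher with AP20187 (8.33%, beside 11.3% of all genes) and 15 lower (20.8%, beside 12.4%). In naive mice 5 were higher and 3 lower (6.94% and 4.17%, beside 8.61% and 2.57%). The counts moved with the DMM vehicle library of mouse 64: without it 14 were higher and 22 lower. Against mice 63 and 64 alone 3 were higher and 7 lower, and against mice 32 to 34 alone 16 were higher and 19 lower. Calls over all genes moved too, from 5410 with all libraries to 7677 without mouse 64. They were 1156 against mice 63 and 64 and 8450 against mice 32 to 34. Without naive AP20187 mouse 3 the naive counts were 2 and 0, beside 994 of all genes called, against 2548 with all libraries. The same totals apply to the lists below. Markers of several cell types were called lower with AP20187 in DMM: 5 of 10 for sensory neurons, 3 of 5 for Schwann cells, 5 of 5 for B cells and 3 of 5 for erythroid cells. In naive mice 5 of 5 B cell markers were called lower and none of the other 3 lists. The part of these cells in the lower genes below was not tested.

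Genes for methylated arginine, the natural NO synthase inhibitor, and its removal gave 4 lower of 8 in DMM and 1 of 8 in naive mice, with none higher, beside 12.4% and 2.57% of all genes called lower. Prmt2, an arginine methyltransferase, fell by 1.09 on the log2 scale in DMM (SE 0.22, adjusted p = 0.00267) and by 0.79 in naive mice (adjusted p = 0.0356). Ddah1, which degrades asymmetric dimethylarginine, fell by 1.07 in DMM (SE 0.29, adjusted p = 0.0160), from 50.9 ± 13.2 to 24.3 ± 13.02 CPM. In naive mice Ddah1 was at 44.1 ± 15.3 CPM with AP20187 and 57.6 ± 7.23 CPM with vehicle, which did not pass. Prmt5 fell by 0.50 in DMM (adjusted p = 0.0440). Against DMM vehicle mice 63 and 64 alone 1 of the 8 was lower. Against mice 32 to 34 alone 4 were lower, and without mouse 64 there were 5. In naive mice 0 were lower without AP20187 mouse 3.

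Of 11 polyamine genes tested, which act downstream of ornithine, 3 fell in DMM and 1 in naive mice, with none higher, beside 12.4% and 2.57% of all genes called lower. Without DMM vehicle mouse 64, 2 were higher and 3 lower, against mice 32 to 34 alone 3 were higher and 3 lower, and against mice 63 and 64 alone 1 was lower. In naive mice 0 were lower without AP20187 mouse 3 and 2 without vehicle mouse 4. Azin2, an antizyme inhibitor prominent in neurons, fell in both, by 1.03 (adjusted p = 0.0219) and 1.04 (adjusted p = 0.0464). Sms, spermine synthase, fell by 0.86 in DMM (adjusted p = 0.0152) and Oaz2, an ornithine decarboxylase antizyme, by 0.58 (adjusted p = 0.00785). None of the 6 ornithine and proline genes, the 4 urea cycle genes or the 9 genes of the NO receptor and cGMP pathway passed in either surgery group with all libraries. In the NO receptor and cGMP list 3 were higher and 3 lower in DMM without vehicle mouse 64, 2 higher and 3 lower against mice 32 to 34 alone, and 1 higher in naive mice without vehicle mouse 4. In the ornithine and proline list 1 was higher in DMM without vehicle mouse 64 and 2 against mice 32 to 34 alone.

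Among 3 creatine genes, which also draw on arginine, 2 were called lower and none higher in DMM, beside 12.4% of all genes called lower. Gamt fell by 0.60 and Slc6a8, the creatine transporter, by 0.38 in DMM (adjusted p = 0.0263 and 0.0250). Against DMM vehicle mice 63 and 64 alone, or 32 to 34 alone, 1 of the 3 was lower. The calls over all genes with these controls were 1156 and 8450, beside 5410 with all libraries. Slc6a8 was the single gene of the 72 called between DMM and naive mice with AP20187, where 0.702% of all genes were called. It was at 24.3 ± 3.38 CPM in DMM and 41.5 ± 2.19 CPM in naive mice, a log2 difference of -0.77 (adjusted p = 0.00515). Skeletal muscle markers lay the same way, at 16.0 to 142 summed CPM in DMM and 1501 to 2311 CPM in naive mice with AP20187, with 0 of 6 called, and their part in the Slc6a8 difference was not tested.

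Of 5 further cationic transporters, 1 was called lower in DMM and 1 in naive mice, beside 12.4% and 2.57% of all genes. None was called higher. Slc7a4 fell by 1.39 in DMM (adjusted p = 0.0210). Slc7a3, a brain-type arginine carrier, fell by 1.57 in naive mice (adjusted p = 0.0375). Slc7a3 in DMM, at 1.94 ± 0.907 CPM with AP20187 and 4.43 ± 1.65 CPM with vehicle, missed the threshold (adjusted p = 0.0505). Of the 5, 3 were lower in DMM without vehicle mouse 64 and 4 against mice 32 to 34 alone. Against mice 63 and 64 alone 0 were lower. The calls over all genes in these DMM settings were 7677, 8450 and 1156, beside 5410 with all libraries. In naive mice 0 of the 5 were lower without AP20187 mouse 3, where 994 of all genes were called, beside 2548 with all libraries. Of 8 NO synthase partners, 1 was called higher and 2 lower in DMM, beside 11.3% and 12.4% of all genes. Nos1ap, an adaptor of neuronal NO synthase, rose by 1.15 in DMM (adjusted p = 0.0119), from a mean of 3.78 to a mean of 8.36 CPM. Calm3, a calmodulin gene, fell by 0.74 (adjusted p = 0.0227) and Nosip by 0.45 (adjusted p = 0.0222). Without DMM vehicle mouse 64, and against mice 32 to 34 alone, 2 partners were higher and 3 lower. Against mice 63 and 64 alone 1 was higher and 0 lower. The calls over all genes in these settings are those given above for the transporters.

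Known inducers of Nos2 gave 5 higher and 0 lower of 12 in each surgery group, beside 11.3% of all genes called higher in DMM and 8.61% in naive mice. Granulocyte precursor markers were higher at the same time, 8 of 9 in DMM and 9 of 9 in naive mice (median log2 fold changes 3.50 and 3.73), and their part in the inducers' levels was not tested. Tnf, the inflammatory cytokine, averaged 8.62 ± 2.58 CPM in DMM and 7.50 ± 2.14 CPM in naive mice with AP20187, against 0.880 ± 0.794 and 0.588 ± 0.327 CPM with vehicle. Its log2 fold changes were 3.29 (adjusted p = 0.000753) and 3.67 (adjusted p = 0.000906). Tlr4, the endotoxin receptor, rose by 2.08 in DMM (adjusted p = 0.000158) and by 1.42 in naive mice (adjusted p = 0.00523). Nfkb1 rose by 1.06 in DMM (adjusted p = 0.0139). Cebpb, a myeloid transcription factor, rose by 3.63 in naive mice (adjusted p = 0.0132).

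Ifng, the textbook inducer of Nos2, averaged at most 0.0578 CPM in any group. Il1b was at 1.64 ± 1.01 CPM with AP20187 and 4.90 ± 6.04 CPM with vehicle in DMM, where vehicle mouse 64 stood at 15.4 CPM and the other 4 at 0.776 to 4.02 CPM. In naive mice it was at 4.56 ± 3.55 CPM with AP20187 and 2.20 ± 0.143 CPM with vehicle, and it did not pass in either surgery group. Without naive AP20187 mouse 3, 2 Nos2 inducers were called in naive mice, where the calls over all genes went from 2548 to 994. Against DMM vehicle mice 63 and 64 alone, 2 Nos2 inducers were higher and 1 lower, beside 663 and 493 of 24459 genes.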

How the data were processed

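Bulk poly(A) RNA sequencing of DRG (stranded TruSeq libraries, per the labels' protocols) was used from 19 libraries in 4 groups. The submitters' processing notes list GRCm39, cutadapt, HISAT2 and StringTie, with no role or version. The authors deposited raw counts, as whole numbers, in a matrix of 56691 entries and in a table of 36682 genes that adds FPKM; every gene of the table had its equal in the matrix. The counts went into edgeR 4.0.16 (R 4.3.3): TMM, filterByExpr with a minimum count of 10, 1 model of the 4 groups with 15 residual degrees of freedom, and Benjamini-Hochberg adjustment over 22778 genes with a threshold of 0.05. Intervals are the fold change ± its standard error times the t quantile for those degrees of freedom. DESeq2 1.42.0, limma 3.58.1 on log2(FPKM + 1) and log2(FPKM + 0.1) for genes with an FPKM of at least 0.1 in 4 or more libraries, other scaling and filters, subsets of the DMM vehicle mice and omission of each library were alternatives. The edgeR fit was also run on simulated data, and the outcome is not reported here. CPM were scaled by TMM; correlations used log2 CPM with a prior count of 2. Mice are the replicates; counting error is not the only error, since reads carried no molecular identifiers. No 2 libraries had identical counts.

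The 8 genes, the pathway lists and the marker lists were chosen with earlier results of these data known. The text names all 8, at most 3 genes per pathway list and surgery group by absolute fold change among those past the threshold, others by value only, and the genes with the highest correlation with Nos2 among those with a group mean of at least 1 CPM. Genes with a predicted-gene, clone or Rik name were left out of those correlations. Il1b and Ifng were named after their values were seen. Some results of the set and of its pathway lists are not reported here.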

Additional observations from a re-analysis of the deposited data

Results flagged for a closer look

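In 4 of the 32 sets formed by a gene and a group, 1 library lay far from the others of its group. Chance puts about 1 in 20 such sets there, a rate that does not hold for the 2 sets of Nos2, where all but 1 library were at 0. Nos2 was at 0.308 CPM in DMM vehicle mouse 32 and at 0.194 CPM in naive vehicle mouse 4, while the other 4 libraries of each group held 0 counts. Nos3 was at 19.6 CPM in naive vehicle mouse 4, against 2.95 to 5.73 CPM in the other 4, and the same library had 306 CPM of summed endothelium markers. Slc7a2 was at 54.6 CPM in naive vehicle mouse 5, against 86.6 to 98.5 CPM in the other 4.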

How the results depend on the processing

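Counts of called genes moved by more than 1.5 times as follows. In naive mice (2548) AP20187 called 4367 with DESeq2, 3958 on log2(FPKM + 1) and 4063 on log2(FPKM + 0.1). In DMM (5410) it called 1156 against vehicle mice 63 and 64 and 8450 against 32 to 34. DMM against naive with vehicle (0) gave 1 with DESeq2 and 541 with mice 63 and 64. With AP20187 (160) it gave 1143 with DESeq2, 73 unfiltered, 1148 and 908 on FPKM. The interaction (26) gave 237 with DESeq2, 13 unfiltered, 52 on log2(FPKM + 1) and 90 with mice 63 and 64. The cause was not tested. Leaving out 1 library gave 3212 (without AP20187 mouse 58) to 7677 (without vehicle mouse 64) in DMM, 994 (without AP20187 mouse 3) to 3452 (without AP20187 mouse 5) in naive mice, 0 to 0 with vehicle, 43 (without DMM mouse 59) to 269 (without DMM mouse 61) with AP20187 and 12 to 57 for the interaction.

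No label says whether the replicate numbers shared by the naive groups pair the mice. Same-numbered deviations correlated at 0.02, 0.30, -0.08 and 0.18 for numbers 1, 3, 4 and 5, and only number 3 matched itself best. Correlations this weak, from so few numbers, cannot decide it. With the replicate block 2352 genes were called in these 8 libraries, against 1388 without it, and Nos1 was at -0.76 (adjusted p = 0.0461).

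Some fold changes that had not passed the test turned sign, most of them small; the larger ones were Slc7a1 in DMM (-0.96) and, between vehicle groups, Nos3 (-0.43) and Slc7a1 (-0.31). Gch1 in naive mice was -0.026 and -0.050 on the FPKM scales, as was Slc7a2 between AP20187 groups at 0.034 and 0.040. Gch1 in DMM was 0.0028 on log2(FPKM + 0.1), and Slc7a2 in DMM 0.0073 with only those groups fitted. Against vehicle mice 63 and 64, Slc7a1 was 0.25 and Slc7a2 0.41. Against mice 32 to 34, Asl was 0.074 and Gch1 0.62, and between vehicle groups Ass1 was -0.047, Asl -0.060 and Slc7a1 0.15. Leaving out 1 library gave, in DMM, Slc7a2 -0.15 to 0.049, Gch1 -0.26 to 0.27 and Asl -0.20 to 0.0027. In naive mice it gave Gch1 -0.062 to 0.29, and between vehicle groups Nos3 -0.67 to 0.25 and Ass1 -0.076 to 0.22. Ass1 in DMM kept its direction in each alternative and lost the threshold only against mice 63 and 64. Log2(FPKM + 0.1) moved the median of all genes to -0.21 in naive mice and 0.15 between AP20187 groups. With 4 or 5 mice a group, differences inside the intervals given could not be resolved.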
